A study of Mus musculus with 70 samples.

Results

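The genes described here carry peptides into the endoplasmic reticulum (ER) and fit them onto MHC class I molecules. They were chosen by symbol from the table of estimated counts per gene: Tap1, Tap2, Tapbp, Tapbpl, Erap1, Canx, Calr and Pdia3. They are 8 of the 35197 genes in the table, and all 8 were among the 16147 that passed the filter on low counts. The study grew 8 mouse cancer cell lines in culture and left them unstimulated (NS) or added interferon beta (IFNb, 1000 activity units per mL) or interferon gamma (IFNg, 100 ng per mL) for 48 hours. B16.1 and YUMMER1.7 are labelled melanoma, CT26.2 and MC38.7 colorectal cancer, KPC.2 and Panc02.3 pancreatic cancer, LLC lung cancer and Renca renal cancer. CT26.2 and Renca are of BALB/c origin and the other 6 lines of C57BL/6 origin. With at most 2 lines for a cancer type, line and cancer type cannot be told apart.

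Class I molecules show short peptides from proteins made inside the cell to CD8 T cells. The proteasome cuts the proteins in the cytosol, and TAP, a transporter built from the Tap1 and Tap2 chains, pumps the fragments into the ER. There the aminopeptidase Erap1 trims them at their front end. Calnexin (Canx) holds newly made heavy chains, and calreticulin (Calr), the disulfide isomerase ERp57 (Pdia3) and tapasin (Tapbp) then hold the empty class I molecule beside TAP until a well-fitting peptide binds. TAPBPR (Tapbpl), a relative of tapasin, edits the peptides away from TAP. Interferons are known to induce the transporter and tapasin in many cell types, while calnexin, calreticulin and ERp57 serve the folding of glycoproteins in every cell.

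The 70 libraries held 668355 to 28550816 estimated counts each, with a median of 8644887, and the lowest was KPC.2 with IFNb, replicate 3. Of the 24 groups of line and treatment, 22 held 3 libraries, and the remaining groups, LLC given IFNg and Renca left unstimulated, had only 2. Nothing in the labels marks the replicates as separate cultures. Each p-value therefore reflects only how far these libraries scatter, and that scatter could be technical. The same holds for each standard error (SE). For a mean of the 8 lines, neither takes in the spread between lines. The interferon-induced genes Irf1, Irf7, Gbp2, Mx1, Isg15 and Ifit1, kept as a check, rose with each cytokine on the mean of the 8 lines, but with IFNb in YUMMER1.7 only Irf7 of the 6 did (values beside Tap1). Melanocyte markers were abundant in unstimulated B16.1 (summed level 20000 to 20400 CPM, counts scaled to a common library total). In YUMMER1.7 they summed to only 18.7 to 25.5 CPM, with Tyrp1 and Mlana at 0. Most of that sum was Mitf, at 20 CPM against 481 CPM in B16.1. Intestinal epithelium markers summed to at most 7.59 CPM in CT26.2 and 0.902 CPM in MC38.7, and lung epithelium markers to at most 0.163 CPM in LLC, against their labels. Pdx1 (57.3 CPM in KPC.2 and 77.9 CPM in Panc02.3) and Pax8 (182 CPM in Renca) were present, while the acinar genes Cpa1 and Ptf1a were at 0 in both pancreatic lines. Other listed genes did not follow the labels. Muc1 of the pancreas list was at 230 CPM in KPC.2 but 0.971 CPM in Panc02.3. Aqp1 of the renal tubule list was at 1.22 CPM in Renca but 1780 CPM in YUMMER1.7. Unstimulated intestinal markers summed to 902 to 929 CPM in KPC.2, above its pancreas markers (362 to 422 CPM), and to 151 to 164 CPM in Panc02.3. The 10 leukocyte markers summed to between 1.60 CPM in B16.1 and 180 CPM in KPC.2 without stimulation. The highest levels were those of Cd14 in KPC.2 (166 CPM) and Panc02.3 (75.4 CPM) and of Cd68 in Renca (41.9 CPM), whereas Adgre1 was at 0 in every unstimulated line and Ptprc reached at most 0.14 CPM. Of the 4 tested, Cd68 rose with IFNg on the mean by 0.36 ± 0.0910 (log2 ± SE). Transcripts of the mitochondrial genome made up 1.39 to 4.89% of counts. On the mean of the lines 11 of their 13 genes fell with each cytokine, beside 17.3% (IFNb) and 23.7% (IFNg) of all genes. The part of that shift in the results below was not tested.

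In the GRCm38 annotation 3 of the genes share the MHC region of chromosome 17: Tapbp (chr17:33915899-33929292), Tap1 (chr17:34187553-34197225) and Tap2 (chr17:34203527-34216321), all on the plus strand. The other members are spread over the genome, with Tapbpl at chr6:125223933-125231860 on the minus strand, Erap1 at chr13:74639568-74693201 on the plus strand, Canx at chr11:50293961-50325673 on the minus strand, Calr at chr8:84841850-84846934 on the minus strand and Pdia3 at chr2:121413775-121438687 on the plus strand. RefSeq promoter windows of 300 bases (250 before to 50 after the start, GRCm38.p6) were at hand for 6 members: Tap1, Tapbp, Erap1, Canx, Calr and Pdia3. They were searched on both strands for the core of an interferon-stimulated response element (TTTCNNTTTC), the core of a gamma-activated site (TTCNNNGAA) and an ER stress response element (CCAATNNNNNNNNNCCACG). The first of these is the kind of site bound by interferon-driven factors of the IRF family, and the last by factors of the ER stress response. Of all 32851 windows 3.44%, 8.3% and 0.119% held the respective motif. The windows of Tapbp (chr17:33919228-33919527) and Erap1 (chr13:74639603-74639902) begin downstream of the annotated gene starts given above. The sequence at those annotated starts was therefore not searched.

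Each of 3 members held 1 match, and the windows of Tap1, Tapbp and Pdia3 held none of the 3 motifs. The stretches are printed 5′ to 3′ on the strand of the gene, with the match in capitals, as the only matches found. IFNg raised Erap1 in every line, but also Tap1 and Tapbp, whose windows held none. The Tapbp window does not cover its annotated gene start. Canx, Calr and Pdia3 were not raised in every line.
Erap1, interferon-stimulated response element core, chr13:74639839-74639868, plus strand: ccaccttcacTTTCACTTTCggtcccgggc
Canx, ER stress response element, chr11:50325775-50325843, minus strand: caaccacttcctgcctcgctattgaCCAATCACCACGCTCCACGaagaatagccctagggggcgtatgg
Calr, ER stress response element read on the other strand, chr8:84847050-84847118, minus strand: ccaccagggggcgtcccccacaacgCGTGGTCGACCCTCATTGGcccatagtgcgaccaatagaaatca
The Erap1 match begins 4 bases before the RefSeq start and overlaps an annotated exon. The Canx and Calr matches begin 145 and 162 bases before the start, outside exons. A match describes these letters only and was not tied to binding by any measurement here. Tap1 and its neighbour Psmb9, an immunoproteasome subunit, start 225 bases apart on opposite strands, so their windows share 275 bases.

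Without stimulation both transporter chains and tapasin differed most between the lines, and Calr and Pdia3 least. Values below are CPM after TMM scaling (a correction for library composition), as mean ± SD over the libraries of a group unless single libraries are listed. Tap1 ranged over 174-fold between the lowest and the highest line mean, Tap2 over 83.7-fold, Tapbp over 20.4-fold, Erap1 over 8.54-fold and Tapbpl over 3.91-fold. For Canx the range was 4.18-fold, for Calr 1.85-fold and for Pdia3 1.76-fold. The unstimulated level differed between lines for all 8 members (F test in edgeR's quasi-likelihood model, largest adjusted p 5.6e-21), as it did for 96.5% of all genes tested. In bulk RNA fewer cells of a kind and less RNA per cell cannot be told apart.

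**Figure D1:**
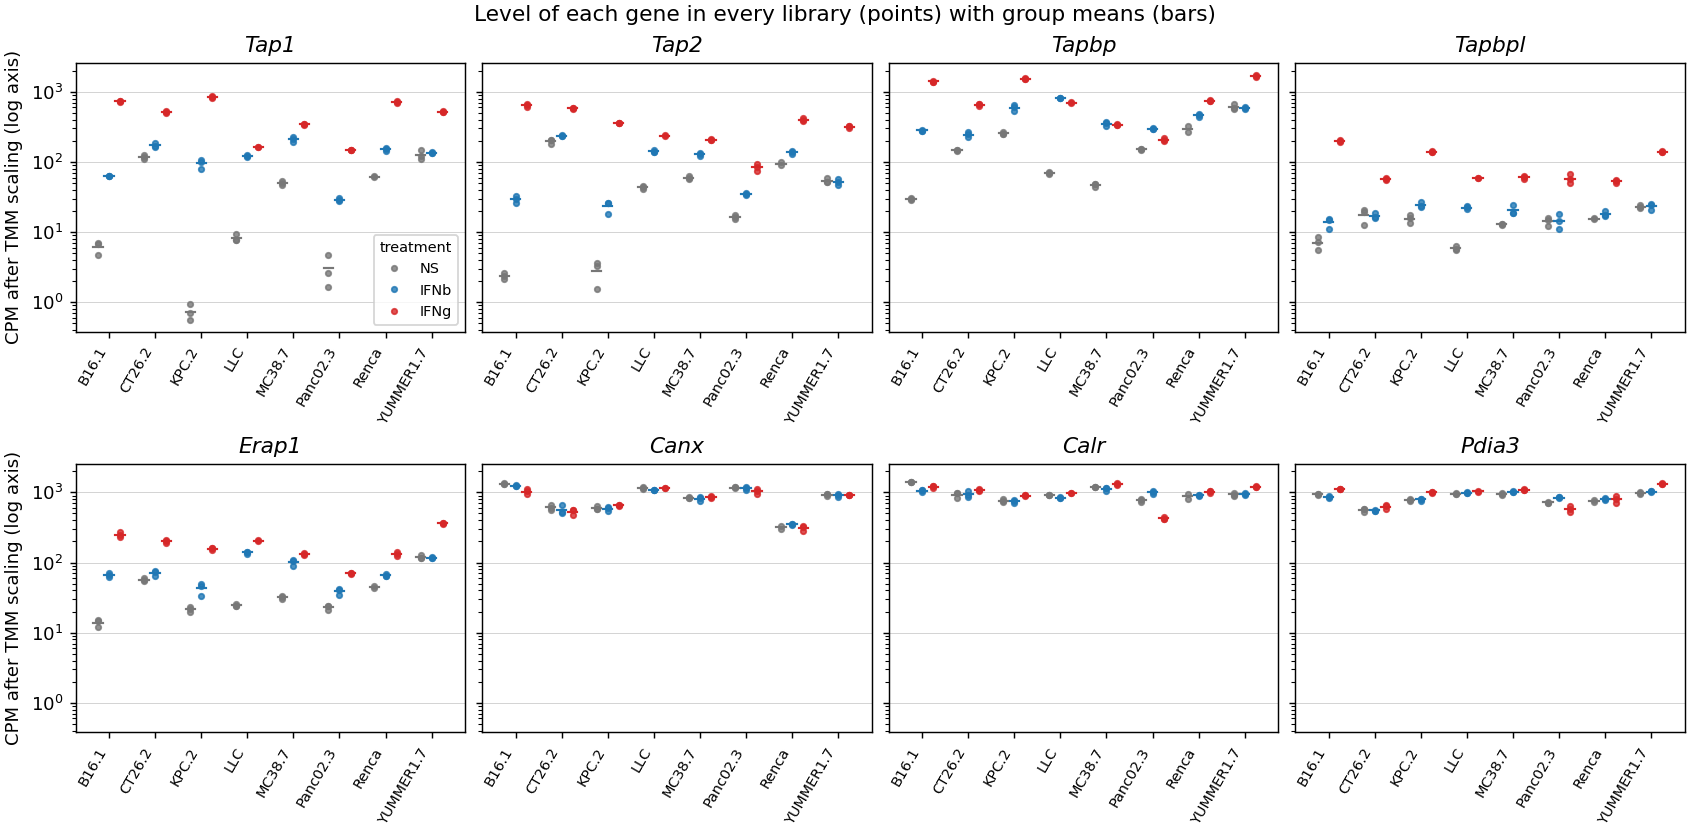
Level of each member in every library (points, CPM after TMM scaling, log axis) by line and treatment, with bars at the group means of 2 or 3 libraries. Tap1 without stimulation ran from 0.734 CPM in KPC.2 to 127 CPM in YUMMER1.7, while Canx, Calr and Pdia3 stayed between 314 and 1404 CPM in every group.

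Tap1, the first chain of the transporter, was lowest in unstimulated KPC.2, where 3 libraries gave 0.695, 0.567 and 0.938 CPM from 13 counts in all. Panc02.3 gave 1.66, 4.79 and 2.65 CPM, B16.1 gave 6.85, 7.02 and 4.69 CPM, and LLC gave 9.52, 7.80 and 7.64 CPM. These 4 lines stood apart from the other 4, whose lowest library was at 47.2 CPM. MC38.7 gave 52.7, 50.8 and 47.2 CPM, Renca 63.2 and 60.4 CPM, CT26.2 118, 126 and 111 CPM, and YUMMER1.7 150, 122 and 111 CPM. CT26.2 and YUMMER1.7 at the top did not differ beyond their spread (adjusted p = 0.22), while each other step of this order passed the test.

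Tap2, the second chain, was lowest in B16.1 (2.35 ± 0.242 CPM, n = 3) and KPC.2 (2.83 ± 1.15, n = 3), 2 neighbours that did not differ beyond their spread (adjusted p = 0.49). CT26.2 was highest at 197 ± 14 CPM (n = 3), followed by Renca at 95.0 ± 7.73 (n = 2). YUMMER1.7, which held the most Tap1, held only 54.2 ± 4.84 CPM of Tap2 (n = 3), next to MC38.7 (63.9, 57.9 and 58.2 CPM). In CPM per kilobase of the longest coding transcript, the scale on which the genes can be set side by side, the median line had 9.92 of Tap1 and 14.2 of Tap2.

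Tapbp, which bridges class I to the transporter, was lowest in B16.1 (28.9, 31.0 and 29.4 CPM) and highest in YUMMER1.7 (667, 586 and 570 CPM). KPC.2, at the bottom for Tap1, was near the top for Tapbp at 256 ± 8.97 CPM (n = 3). Erap1 was likewise lowest in B16.1 (12.1, 14.7 and 15.1 CPM) and highest in YUMMER1.7 (127, 115 and 116 CPM). Tapbpl was scarce everywhere, from 5.91 ± 0.392 CPM in LLC to 23.1 ± 0.923 in YUMMER1.7 (n = 3 each), and the 5 lines between MC38.7 and CT26.2 did not differ step by step. Per kilobase, the median line held 51.4 CPM of Tapbp, 6.32 of Tapbpl and 4.99 of Erap1.

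The general chaperones were far more abundant per kilobase, with 206 CPM for Canx, 309 for Pdia3 and 423 for Calr in the median unstimulated line. Canx was the most variable of these, from 319 ± 20.3 CPM in Renca (n = 2) to 1331 ± 20.5 in B16.1 (n = 3). Renca libraries gave 304 and 333 CPM, below every library of the other lines, whose lowest was at 567 CPM. Calr ran from 758 ± 35.5 CPM in KPC.2 to 1404 ± 11.9 in B16.1 (n = 3 each), and the 4 lines Renca, LLC, CT26.2 and YUMMER1.7 did not differ step by step. Pdia3 ran from 562 ± 26.8 CPM in CT26.2 to 990 ± 31.7 in YUMMER1.7 (n = 3 each), and the top 4 lines did not differ step by step.

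IFNb raised the transporter, tapasin and the trimming peptidase in 7 lines and left YUMMER1.7 without a call. On the mean of the 8 lines 6 members rose (Tap1, Tap2, Tapbp, Tapbpl, Erap1 and Pdia3) and none fell, beside 13% of all genes tested that rose and 17.3% that fell at the same threshold, an adjusted p under 0.05. The median difference of the 8 members was 0.86 on the log2 scale, against -0.02 over all genes. Counted over the 64 pairs of member and line, 34 rose, 20 of them by at least 2-fold, 2 fell (Calr and Pdia3 in B16.1) and 28 did not pass. Over all pairs of gene and line 7.66% rose, 1.85% rose by at least 2-fold and 8.21% fell. The fall of Pdia3 there (-0.13 ± 0.0511, adjusted p = 0.047) was lost without IFNb replicate 1 or 2 or NS replicate 1 or 3, which left 1 fallen pair. Within lines the share of all genes that rose ran from 0.384% in YUMMER1.7 to 17.6% in LLC.

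Tap1 rose most with IFNb, by 2.71 ± 0.0421 (log2 ± SE) on the mean of the 8 lines, or 6.57-fold (adjusted p = 4.5e-51). KPC.2 libraries went from at most 0.938 CPM to 99.6, 106 and 80.0 CPM, a fitted 7.12 ± 0.197 that rests on the 13 unstimulated counts. LLC reached 116, 121 and 124 CPM (3.86 ± 0.0955), and B16.1 62.9, 62.8 and 62.4 CPM (3.36 ± 0.121). No stimulated library of these 3 lines overlapped its unstimulated libraries. Every IFNb library lay above every unstimulated one in 7 lines for Tap1, Tap2, Tapbp and Erap1 and in 5 for Tapbpl, as in 13.7% of all pairs of gene and line. Panc02.3 rose by as much as B16.1 (3.36 ± 0.154) but reached only 29.0, 30.6 and 27.6 CPM. The rises in MC38.7 (2.09 ± 0.0786), Renca (1.31 ± 0.0891) and CT26.2 (0.53 ± 0.0827) were smaller, and these lines began higher. In YUMMER1.7 the IFNb libraries at 138, 136 and 133 CPM lay inside the unstimulated range of 111 to 150 CPM, a difference of 0.09 ± 0.0760 (adjusted p = 0.76). The interferon-induced genes kept as a check did not rise together in that line with IFNb either. Irf7 rose by 0.38 ± 0.0806, while Gbp2 (-0.51 ± 0.0762), Mx1 (-0.65 ± 0.116) and Ifit1 (-0.36 ± 0.0885) fell, and Irf1 (-0.06) and Isg15 (-0.20) did not pass. Of all genes in that comparison 0.384% rose and 0.972% fell. With IFNg all 6 rose in YUMMER1.7, from 0.53 ± 0.0896 for Isg15 to 4.20 ± 0.0805 for Gbp2.

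Tapbp followed with 1.66 ± 0.0226 on the mean (adjusted p = 7.8e-54), and its largest rises were in LLC (3.55 ± 0.0643), B16.1 (3.24 ± 0.0709) and MC38.7 (2.92 ± 0.0655). LLC went from between 66.6 and 71.5 CPM to 808, 813 and 821 CPM, the highest Tapbp level of any line with IFNb. Tap2 rose by 1.43 ± 0.0381 on the mean, and its 7 calls ran from 3.65 ± 0.146 in B16.1 to 0.27 ± 0.0699 in CT26.2, while YUMMER1.7 at -0.06 did not pass. Erap1 rose by 1.15 ± 0.0297 on the mean, with LLC (2.51 ± 0.0714) and B16.1 (2.25 ± 0.0900) ahead. In LLC the peptidase went from 25.6, 24.1 and 23.6 CPM to 143, 142 and 133 CPM without overlap. Of all genes tested in LLC, 23.3% lay higher in every IFNb library than in every unstimulated one. In CT26.2 the call for Tap2 (adjusted p = 0.019) was lost without IFNb replicate 1 or 2 or NS replicate 1 (adjusted p = 0.066 to 0.2). There the call for Erap1 (0.33 ± 0.0845, adjusted p = 0.017) was lost without IFNb replicate 1 or NS replicate 1 or 3 (adjusted p = 0.067 to 0.24).

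Tapbpl, the tapasin relative, rose by 0.56 ± 0.0479 on the mean (adjusted p = 9.6e-15) and passed the test in 4 lines. LLC led, from 5.57, 6.34 and 5.84 CPM to 22.6, 21.3 and 23.2 CPM (1.92 ± 0.120), followed by B16.1 (0.97 ± 0.154), KPC.2 (0.68 ± 0.154) and MC38.7 (0.59 ± 0.115). In CT26.2, Panc02.3, Renca and YUMMER1.7 the difference lay between 0.02 and 0.22 and did not pass. The KPC.2 call was lost without 1 IFNb library (replicate 2, adjusted p = 0.11).

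**Figure D2:**
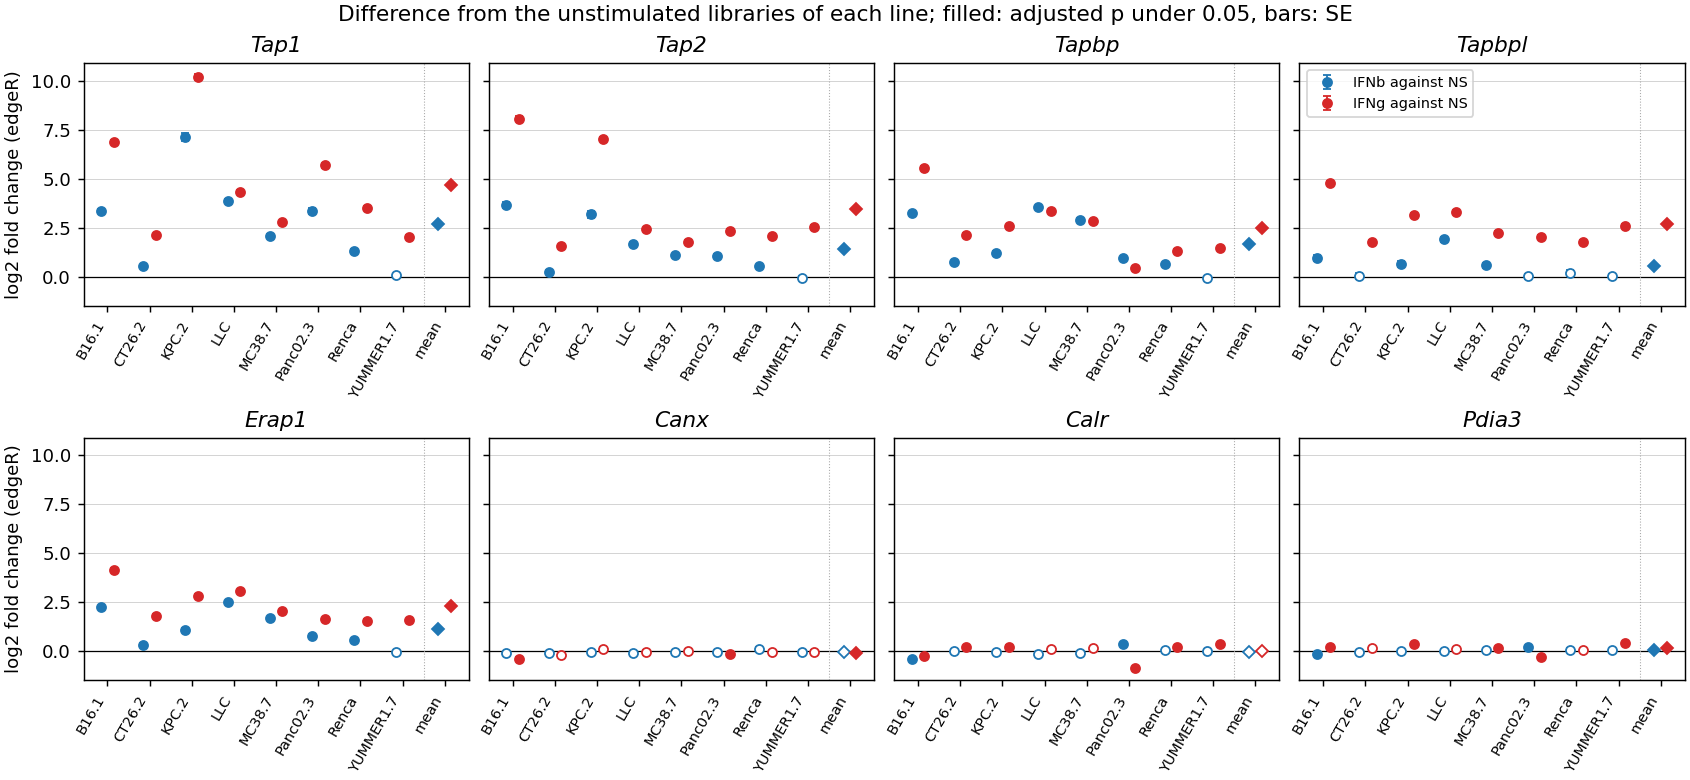
Log2 fold change of each member in each line and on the mean of the 8 lines, for IFNb (blue) and IFNg (red) against the unstimulated libraries, with bars for the SE and filled symbols for an adjusted p under 0.05. Tap1, Tap2, Tapbp, Tapbpl and Erap1 are filled for IFNg in all 8 lines, and no member is filled for IFNb in YUMMER1.7.

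IFNg raised Tap1, Tap2, Tapbp, Tapbpl and Erap1 in every line. Over the mean of the 8 lines 6 members rose, Canx fell and Calr did not pass, beside 18.3% of all genes tested that rose and 23.7% that fell. Of the 64 pairs 48 rose, 39 of them by at least 2-fold, 5 fell and 11 did not pass. Over all pairs of gene and line 12% rose, 4.21% by at least 2-fold, and 12.4% fell. The median difference of the members on the mean was 2.41, against -0.04 over all genes. Every IFNg library lay above every unstimulated library of its line for these 5 genes in all 8 lines. Of all pairs of gene and line 18.7% did so.

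Tap1 rose by 4.69 ± 0.0378 on the mean (25.9-fold, adjusted p = 5.4e-66). The KPC.2 libraries reached 860, 833 and 813 CPM, the highest of any line, from the lowest start (10.19 ± 0.152). B16.1 reached 722, 732 and 737 CPM (6.90 ± 0.108), Renca 688, 730 and 717 CPM (3.52 ± 0.0940) and YUMMER1.7 513, 533 and 519 CPM (2.04 ± 0.0746). CT26.2 reached 512, 495 and 534 CPM (2.12 ± 0.0788) and MC38.7 346, 336 and 350 CPM (2.77 ± 0.0781). The 2 lowest lines were LLC, where both libraries were at 165 CPM (4.32 ± 0.0982), and Panc02.3 at 146, 146 and 148 CPM (5.69 ± 0.132). The order of the lines with IFNg was thus not that without it, and these 2 lowest lines did not differ beyond their spread (adjusted p = 0.08).

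Tap2 rose by 3.48 ± 0.0317 on the mean (11.2-fold). B16.1 went from 2.12, 2.34 and 2.60 CPM to 613, 647 and 668 CPM (8.08 ± 0.111) and KPC.2 from 1.53, 3.69 and 3.28 CPM to 364, 361 and 357 CPM (7.02 ± 0.118). The remaining 6 lines rose by 1.56 to 2.55. Panc02.3 ended lowest, at 92.7, 73.7 and 85.3 CPM, below every IFNg library of the other lines, whose lowest was at 206 CPM. Per kilobase the median line held 175 CPM of Tap1 and 98.4 of Tap2 with IFNg.

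Tapbp rose by 2.47 ± 0.0231 on the mean (5.54-fold), from 5.57 ± 0.0739 in B16.1 to 0.46 ± 0.0638 in Panc02.3. The Panc02.3 libraries went from 147, 155 and 152 CPM to 220, 204 and 199 CPM, while those of YUMMER1.7 reached 1641, 1718 and 1695 CPM. Tapbpl rose by 2.70 ± 0.0395 (6.52-fold), with B16.1 at 192, 196 and 202 CPM far above its unstimulated 5.48, 8.62 and 7.18 CPM (4.79 ± 0.112). Its IFNg levels fell into a lower set of 5 lines (Renca, CT26.2, Panc02.3, LLC and MC38.7, means of 53.0 to 60.8 CPM) and an upper set of YUMMER1.7, KPC.2 and B16.1 (140.0 to 197 CPM). Erap1 rose by 2.34 ± 0.0278 (5.07-fold), most in B16.1 (4.15 ± 0.0832) and least in Renca (1.57 ± 0.0801). YUMMER1.7, which gave no call with IFNb, had the highest Erap1 level with IFNg at 365, 363 and 358 CPM.

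The difference made by a cytokine was not the same in all lines. By the F test in the same model it varied between lines for 7 members with IFNb, all but Canx (adjusted p = 0.47), where 48.2% of all genes tested passed. With IFNg it varied for all 8 members, where 69.2% passed. Against the mean of the other 7 lines, YUMMER1.7 departed with IFNb by -3.00 for Tap1, -1.70 for Tap2, -1.96 for Tapbp, -1.35 for Erap1 and -0.60 for Tapbpl, all past the test, as were 5.28% of all genes in that line. With IFNg the same line departed by -3.04 for Tap1, -1.07 for Tap2, -1.14 for Tapbp and -0.84 for Erap1, but by -0.12 for Tapbpl (adjusted p = 0.58). There 13.8% of all genes departed. CT26.2 departed for Tap1 by -2.49 with IFNb and -2.94 with IFNg, where 4.82% and 12.7% of all genes did. KPC.2 departed by 5.04 for Tap1 with IFNb, and with IFNg by 6.28 for Tap1 and 4.05 for Tap2. Its Tap1 values rest on 13 unstimulated counts, and 2.01% and 23.9% of all genes departed there. Those Tap1 rises of KPC.2 (7.12 with IFNb and 10.19 with IFNg) also enter the mean against which each other line was set. They make the Tap1 departures of YUMMER1.7 and CT26.2 more negative. B16.1 departed with IFNg by 5.25 for Tap2, 3.54 for Tapbp and 2.52 for Tap1, in a line where 44.6% of all genes departed. The melanocyte markers of B16.1 moved in the same libraries, from a summed 20000 to 20400 CPM without stimulation to between 12600 and 13000 with IFNb and between 9120 and 9590 with IFNg. All 7 fell with IFNb, and 6 fell with IFNg while Sox10 rose by 0.42 ± 0.0635, beside 14.3% and 26.5% of all genes that fell there. The part of that shift in the changes of the members was not tested.

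At the doses used and after 48 hours, IFNg gave higher levels than IFNb for the transporter chains, Tapbpl and Erap1 in all 8 lines. The doses, 100 ng per mL of IFNg and 1000 activity units per mL of IFNb, are in unlike units. Whether they were of equal strength was not tested, nor were other doses or times. In YUMMER1.7 no member passed with IFNb against unstimulated libraries, and that line counts among the 8 and in their mean. On the mean of the 8 lines 6 members were higher with IFNg and none lower, beside 18% of all genes tested that were higher and 18.7% that were lower. Of the 64 pairs 48 were higher, 28 of them by at least 2-fold, 5 were lower and 11 did not pass. Over all pairs of gene and line 13.9% were higher, 3.28% by at least 2-fold, and 12.6% were lower. For Tap1, Tap2, Tapbpl and Erap1 every IFNg library exceeded every IFNb library in all 8 lines, as in 20.3% of all pairs. The difference varied between lines for all 8 members, and for 70.1% of all genes. The 2 comparisons with unstimulated libraries share those libraries, so this direct comparison was used for the cytokines.

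Tapbpl showed the largest mean difference at 2.14 ± 0.0383 (4.42-fold), from 1.39 ± 0.0972 in LLC to 3.82 ± 0.103 in B16.1. Tap2 followed at 2.05 ± 0.0270 and Tap1 at 1.98 ± 0.0282. In LLC and MC38.7 the transporter gained little from IFNg over IFNb: Tap1 differed by 0.46 ± 0.0797 and 0.69 ± 0.0708, and Tap2 by 0.74 ± 0.0702 and 0.68 ± 0.0650. Erap1 differed by 1.19 ± 0.0259 on the mean and by only 0.35 ± 0.0637 in MC38.7.

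Tapbp was the exception among the induced genes. Its mean difference was 0.81 ± 0.0212, and 5 lines were higher with IFNg, led by B16.1 (2.33 ± 0.0605). Panc02.3 was lower with IFNg, at 220, 204 and 199 CPM against 293, 294 and 301 CPM with IFNb (-0.50 ± 0.0625, adjusted p = 3.4e-10), with no overlap. Of all genes tested in Panc02.3, 31.6% lay lower in every IFNg library than in every IFNb library. LLC was also lower, at 693 and 704 CPM against 808, 813 and 821 CPM (-0.22 ± 0.0636, adjusted p = 0.0055), a call lost without IFNg replicate 1 (adjusted p = 0.059). In MC38.7 the 2 sets of libraries overlapped (-0.06 ± 0.0576, adjusted p = 0.5).

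**Figure D3:**
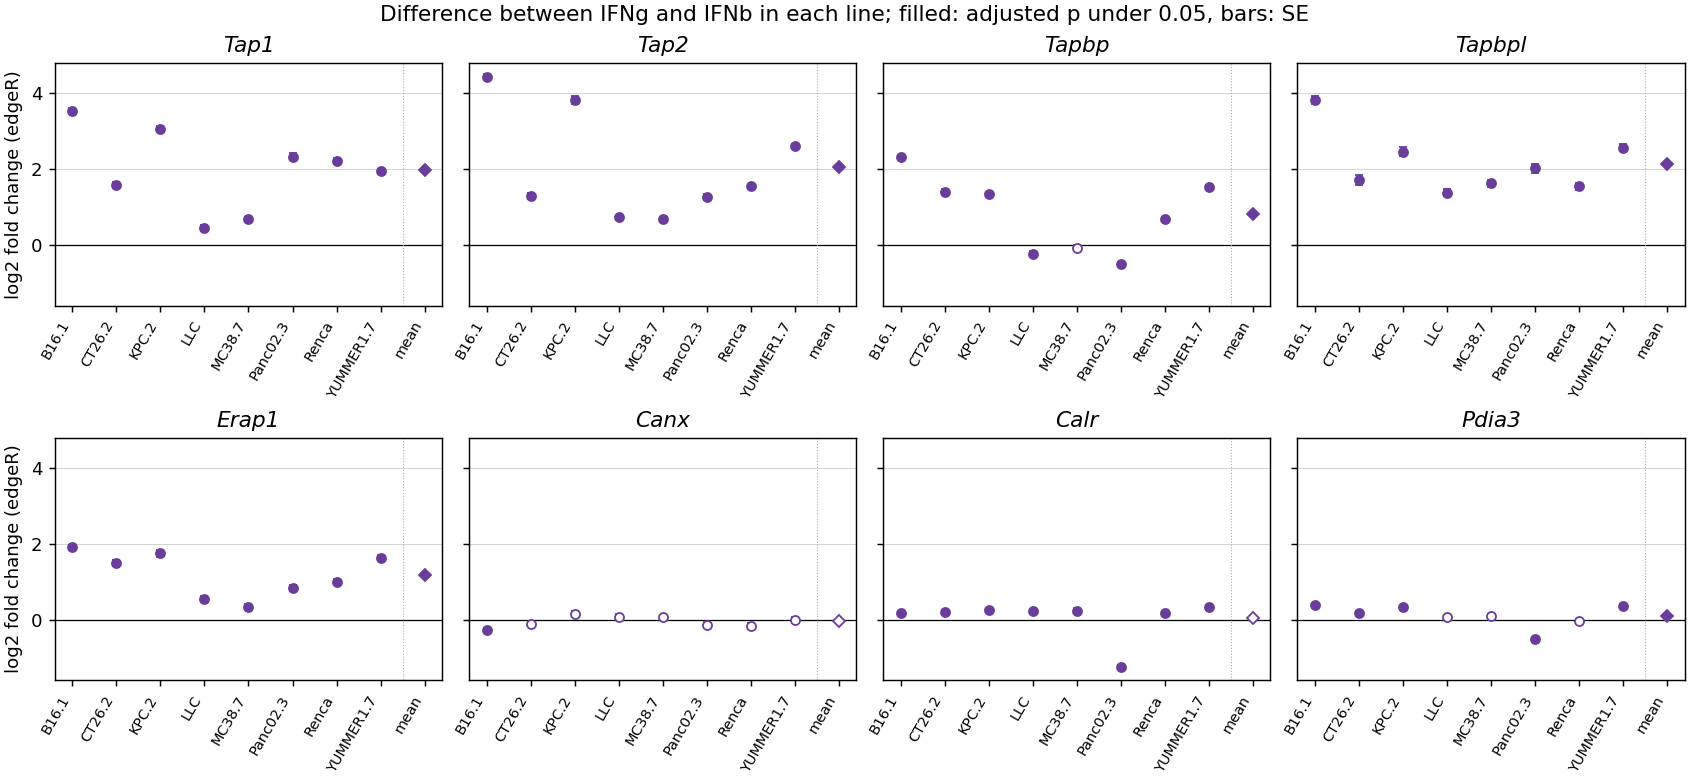
Log2 fold change of IFNg over IFNb for each member in each line and on the mean of the 8 lines, with bars for the SE and filled circles or diamonds for an adjusted p under 0.05. Tap1, Tap2, Tapbpl and Erap1 lie above 0 in all 8 lines, Tapbp lies below 0 in Panc02.3 and LLC (filled) and in MC38.7 (open), and Calr lies at -1.25 in Panc02.3.

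The 3 general chaperones moved by less than 2-fold in every line against unstimulated libraries. Their largest differences there were -0.86 (Calr in Panc02.3) and 0.43 (Pdia3 in YUMMER1.7), both with IFNg. Canx did not pass in any line with IFNb, where its differences ran from -0.10 to 0.13. With IFNg it fell on the mean by 0.07 ± 0.0238 (adjusted p = 0.0086), a call lost when any of the 3 replicate numbers was left out across groups. B16.1 carried the clearest fall, from 1332, 1351 and 1310 CPM to 1106, 1030 and 946 CPM (-0.37 ± 0.0646, adjusted p = 1.3e-06). The call for Canx in Panc02.3 (-0.15 ± 0.0653, adjusted p = 0.048) was lost without IFNg replicate 1 or 3 or without any of the 3 NS libraries (adjusted p = 0.055 to 0.34).

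Calr, the soluble lectin of the loading complex, did not pass on the mean with either cytokine (-0.02 ± 0.0201 with IFNb and 0.03 ± 0.0203 with IFNg), while single lines moved in opposite directions. With IFNg it rose in CT26.2, KPC.2, Renca and YUMMER1.7 by 0.22 to 0.36 and fell in B16.1 (-0.22 ± 0.0554) and Panc02.3 (-0.86 ± 0.0579, adjusted p = 1.2e-19). Panc02.3 libraries went from 734, 807 and 766 CPM to 440, 421 and 412 CPM with IFNg, whereas with IFNb they went to 963, 1004 and 1054 CPM (0.39 ± 0.0558, adjusted p = 3.7e-07). The 3 groups of that line did not overlap. Of all genes tested there, 32.5% lay lower in every IFNg library than in every unstimulated one. Against the IFNb libraries 31.6% did so, and 9.28% lay higher in every IFNb library than in every unstimulated one. Of the calls named above, that in CT26.2 was lost without NS replicate 1 (adjusted p = 0.096) and that in Renca without IFNg replicate 2 or 3 or NS replicate 2 (adjusted p = 0.054 to 0.6). B16.1 showed another order, from 1409, 1413 and 1390 CPM down to 1095, 1069 and 1009 CPM with IFNb (-0.41 ± 0.0556) and 1216, 1217 and 1172 CPM with IFNg. Compared directly, Calr was higher with IFNg than with IFNb in 7 lines (0.17 to 0.33), beside 13.9% of all pairs of gene and line. It was lower in Panc02.3 (-1.25 ± 0.0581) and did not pass on the mean (0.05 ± 0.0201, adjusted p = 0.056). The calls in CT26.2 and Renca were each lost without some single library.

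Pdia3, the isomerase that pairs with tapasin, rose by 0.16 ± 0.0187 on the mean with IFNg (adjusted p = 1.1e-10). It rose in B16.1, KPC.2, MC38.7 and YUMMER1.7, most in the last, from 990, 958 and 1021 CPM to 1328, 1322 and 1356 CPM (0.43 ± 0.0510). Panc02.3 again went the other way, from 714, 730 and 708 CPM to 637, 532 and 583 CPM with IFNg (-0.29 ± 0.0523) and to 846, 818 and 847 CPM with IFNb (0.22 ± 0.0513). The MC38.7 call was lost without IFNg replicate 1 or NS replicate 1 or 3 (adjusted p = 0.056 to 0.12). Its IFNb rise on the mean was small (0.05 ± 0.0185, adjusted p = 0.039) and was lost in 15 of 70 leave-outs of 1 library (adjusted p = 0.051 to 0.081), among them the shallowest, KPC.2 with IFNb replicate 3.

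Panc02.3 with IFNg also differed in the other ER genes, which were looked at in this line after the values of Calr and Pdia3 were seen. Of 15 ER chaperones and isomerases tested there, 3 rose and 9 fell, in a line where 23.2% of all genes rose and 31.6% fell. The falls included Sdf2l1 (-1.26 ± 0.124), the prolyl hydroxylase subunit and isomerase P4hb (-0.95 ± 0.0680), Pdia6 (-0.61 ± 0.0519) and Pdia4 (-0.44 ± 0.0509). Hspa5, the main Hsp70 chaperone of the ER, rose by 1.61 ± 0.0515 (adjusted p = 1.9e-34). Of 10 genes of glucose trimming and glycoprotein quality control 8 fell and 1 rose, and of 10 genes of the ER translocon and class I export 8 fell and none rose. In the same libraries Tap1 rose by 5.69, and transcripts of 11 of the 13 mitochondrial genes fell, with a median of -0.55. The part of that shift in these values was not tested.

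With IFNb, Tap1 ran from 29.1 ± 1.5 CPM in Panc02.3 to 213 ± 19.2 in MC38.7 (n = 3 each), and every neighbouring pair in that order differed except Renca and CT26.2 (adjusted p = 0.071). Tap2 ran from 23.5 ± 4.52 CPM in KPC.2 to 236 ± 4.64 in CT26.2, and MC38.7, Renca and LLC between 129 and 142 CPM did not differ step by step. Tapbp ran from 246 ± 17.7 CPM in CT26.2 to 814 ± 6.74 in LLC, and Erap1 from 39.0 ± 4.28 CPM in Panc02.3 to 140 ± 5.31 in LLC. For Tapbpl, from 13.8 ± 2.21 CPM in B16.1 to 24.5 ± 2.42 in KPC.2, no neighbouring pair differed, so its order with IFNb was not resolved step by step.

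With IFNg the order changed again. Tap1 in CT26.2 and YUMMER1.7 (adjusted p = 0.85) and in Renca and B16.1 (adjusted p = 0.66) did not differ beyond the spread, whereas every neighbouring pair differed for Tap2, from 83.9 ± 9.57 CPM in Panc02.3 to 643 ± 27.9 in B16.1. Tapbp ran from 208 ± 11 CPM in Panc02.3 to 1685 ± 39.4 in YUMMER1.7, and neither CT26.2, LLC and Renca nor B16.1 and KPC.2 differed step by step. Erap1 ran from 70.2 ± 1.74 CPM in Panc02.3 to 362 ± 3.47 in YUMMER1.7, with MC38.7 beside Renca and CT26.2 beside LLC indistinct. Calr was lowest in Panc02.3 at 424 ± 14.1 CPM, and the next line, KPC.2, stood at 902 ± 20.2. Pdia3 was at 584 ± 52.5 CPM in Panc02.3 and 626 ± 41.8 in CT26.2, which did not differ (adjusted p = 0.11), and at 1335 ± 18.1 in YUMMER1.7. Canx again was lowest in Renca (314 ± 26.6 CPM) and highest in LLC (1148 ± 1.14, n = 2).

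Levels of Tap1, Tap2, Tapbp and Erap1 lay closer together across lines with a cytokine than without. The ratio of the highest to the lowest line mean of Tap1 was 174 without stimulation, 7.31 with IFNb and 5.69 with IFNg, and that of Tap2 was 83.7, 10.1 and 7.66. For Tapbp it was 20.4, 3.31 and 8.11, so that IFNb and not IFNg gave the narrower range, and for Erap1 8.54, 3.58 and 5.16. Tapbpl narrowed with IFNb to 1.78 from 3.91 and stood at 3.71 with IFNg. Calr widened with IFNg from 1.85 to 3.11 and Pdia3 from 1.76 to 2.29, and in both cases Panc02.3 was the lowest line. Panc02.3 had the lowest mean with IFNg for Tap1, Tap2, Tapbp, Erap1, Calr and Pdia3. These ratios are descriptions and were given no test.

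**Figure D4:**
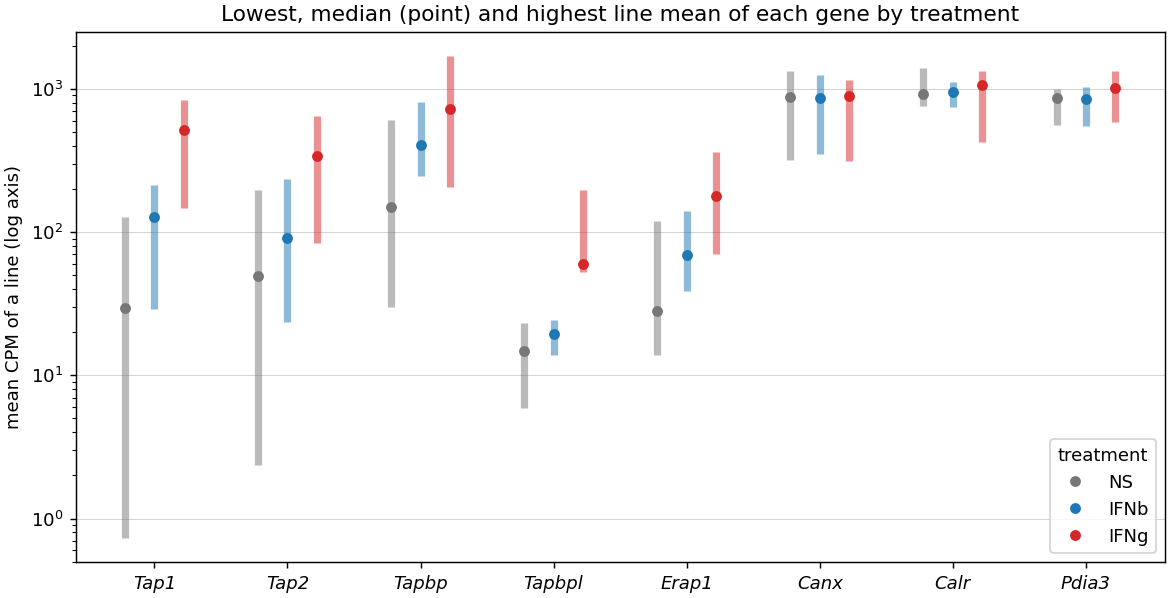
Lowest, median (point) and highest line mean of each member, in CPM on a log axis, for NS, IFNb and IFNg over the 8 lines. The bar of Tap1 shortens from 174-fold without stimulation to 5.69-fold with IFNg, while that of Calr lengthens from 1.85-fold to 3.11-fold.

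The 5 induced genes followed each other over the 24 groups after each line's own mean log2 CPM was subtracted. Pearson's r over the 10 pairs ran from 0.812 (Tap1 and Tapbp) to 0.955. Calr and Pdia3 gave an r of 0.781 with each other and of -0.0478 to 0.565 with those 5, and Canx gave -0.52 to 0.331 with the other members. Such r values are descriptions over groups that share lines and treatments. Among 12557 genes the 3 most like Tap1 were Psmb9 and Psmb8 (both r = 0.97), 2 catalytic subunits of the immunoproteasome, and Nlrc5 (0.964), the transactivator of class I genes. For Tap2 they were Cxcl11 (0.969), Xdh (0.968) and Mlkl (0.963), and for Tapbp the class I gene H2-T22 (0.959), Gbp9 (0.95) and Trim21 (0.95). Tapbpl was most like Idnk (0.987), Irf1 (0.98) and Apol10b (0.978), and Erap1 most like the proteasome activator subunits Psme2 (0.986) and Psme1 (0.98) and the GTPase Igtp (0.972). The genes nearest Canx were Slc30a5 (0.927), Arhgap19 (0.895) and Lmbrd2 (0.884), those nearest Calr were Med27 (0.938), Cuta (0.935) and Psmd13 (0.93), and those nearest Pdia3 were Ndufs4 (0.934), Rnf115 (0.905) and Plekhf1 (0.899). With the line means kept in, none of these 3 nearest genes came out again for Tap2, Tapbp, Canx, Calr or Pdia3.

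Other genes of the pathway were followed in lists given by function. On the mean of the lines 13% of all genes tested rose and 17.3% fell with IFNb. With IFNg 18.3% rose and 23.7% fell. Of the class I heavy chains H2-K1 and H2-D1, B2m and Nlrc5, all 4 rose with each cytokine on the mean, and Nlrc5 rose by 2.94 ± 0.0641 with IFNb and 5.08 ± 0.0486 with IFNg. All 5 genes of the immunoproteasome and its activator rose with each, led by Psmb8 (3.24) and Psmb9 (3.10) with IFNb and by Psmb9 (6.35) and Psmb8 (6.17) with IFNg. Among interferon-responsive transcription factors Irf1 rose with each cytokine (0.76 with IFNb and 3.80 with IFNg), and Irf8 did not pass. Among 8 peptidases of the cytosol and endosomes Lap3, a leucine aminopeptidase, rose with IFNg by 0.97 ± 0.0197 and 3 fell (Npepps, Lnpep and Nln), while with IFNb Tpp2 rose by 0.13 and Npepps fell by 0.18 on the log2 scale. The 5 other ABCB-family transporters, relatives of TAP, gave no rise on the mean of the 8 lines, though 1 rose in LLC with IFNb (Abcb6, 0.56): Abcb8 fell with IFNb (-0.27) and 4 fell with IFNg, led by Abcb9 (-0.64 ± 0.192), while Abcb10 did not pass with either (0.03 and -0.08).

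The lists of glycoprotein quality control, ER chaperones and translocon were read against all genes tested, of which 13% rose and 17.3% fell with IFNb and 18.3% rose and 23.7% fell with IFNg, each as a mean over the lines. Of 10 quality control genes 1 fell with IFNb (Edem2, -0.11), and with IFNg 2 rose and 5 fell, led by Uggt2 (-0.43) and Uggt1 (0.22), the glucosyltransferase that sends misfolded proteins back to the lectins. Of 15 ER chaperones 3 rose and 7 fell with IFNb, where P4hb fell by 0.26 on the log2 scale, and 6 rose and 4 fell with IFNg, led by Hspa5 (0.35), Creld2 (0.27) and Txndc5 (-0.21). Of 10 translocon and export genes 5 fell and none rose with each cytokine, with Sec61b, a translocon subunit, at -0.22 and -0.16.

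Exons of several members overlap those of other genes. The kit keeps strand, but whether the counting used it is not stated in the labels, so reads from overlapping stretches may have been shared. Tap1 and Psmb9 share 212 exon bases on opposite strands, and Psmb9 itself rose by 3.10 ± 0.0974 with IFNb and 6.35 ± 0.0561 with IFNg. Erap1 shares 834 exon bases with Cast on the opposite strand, whose median line mean was 156 CPM unstimulated and 194 CPM with IFNg (0.23 ± 0.0225 on the mean). Tapbp shares 149 bases with Zbtb22 on its own strand, which fell by 0.23 ± 0.0292 with IFNg. On the opposite strand Tapbp shares 904 bases with Gm19412, Tap2 533 with Gm15821 and 165 with Gm20496, and Pdia3 18 with Catsper2. Gm15821 rose by 3.12 ± 0.415 with IFNg, to a median line mean of 1.71 CPM. Gm19412 and Gm20496 were not among the 35197 genes. The part of these neighbours in the members' values was not tested.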

How the data were processed

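RNA of 70 culture samples was sequenced in bulk, 1 library each. The authors deposited a table of estimated counts per gene, whole numbers not scaled between libraries. Per the submitters' processing notes the tools were Trimmomatic 0.36 and kallisto with mm10/GRCm38. The kallisto version, the step from transcripts to genes and the use of strand were not given in the sources used here. Totals ran from 668355 to 28550816, so genes at a few counts, such as Tap1 in unstimulated KPC.2, are imprecise.

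Counts were scaled by TMM and tested with edgeR 4.0.16 (quasi-likelihood) in R 4.3.3, in 1 model with a coefficient for each of the 24 groups and 46 residual degrees of freedom, after filterByExpr left 16147 of 35197 genes. P-values were adjusted by Benjamini and Hochberg over all genes tested, and a call is an adjusted p under 0.05. An SE was obtained as the size of a log2 difference over the root of its F value. Lists held class I genes, the immunoproteasome, peptidases, ABCB-family transporters, glycoprotein quality control, ER chaperones, translocon and export, transcription factors, a stimulation check, mitochondrially encoded genes and markers of leukocytes, endothelium, melanocytes, epithelium, intestine, pancreas, lung and renal tubule. On the mean of the lines, among endothelial markers none rose or fell with either cytokine. 1 gene of the transcription factor and stimulation lists is not reported here. The members and lists were chosen with earlier results of these data known. All members were named. From each list up to 3 genes with the largest mean change that passed were named, and up to 2 that did not. For each member the 3 other genes with the highest Pearson's r over the 24 groups were named. The ER genes in Panc02.3, the check genes in YUMMER1.7, Abcb6 in LLC and Sox10 in B16.1 were chosen after their values were seen. So were Cd14, Cd68, Muc1, Aqp1 and Mitf. Alternatives used DESeq2 1.42.0, limma 3.58.1 (voom), no filter, single lines, a replicate block and fewer libraries. Promoter windows came from RefSeq (GRCm38.p6), with no entry used for Tap2 and Tapbpl.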

Additional observations from a re-analysis of the deposited data

Results flagged for a closer look

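The effect of a cytokine differed between the 8 lines for most members, by the F test of line and treatment in edgeR (adjusted p over all genes tested). For IFNb against NS the adjusted p was 1.6e-38 for Tap1, 3.6e-29 for Tap2, 3.5e-44 for Tapbp, 4.1e-14 for Tapbpl, 2.7e-31 for Erap1, 6.5e-10 for Calr and 0.0048 for Pdia3. For IFNg against NS it was 1.6e-43 for Tap1, 9.9e-45 for Tap2, 6.1e-45 for Tapbp, 7.5e-24 for Tapbpl, 3.4e-30 for Erap1, 8.6e-05 for Canx, 5.7e-20 for Calr and 1.5e-11 for Pdia3. For IFNg against IFNb it was 1.6e-33 for Tap1, 5.9e-40 for Tap2, 5.2e-38 for Tapbp, 9e-22 for Tapbpl, 9.7e-24 for Erap1, 0.00067 for Canx, 2.9e-25 for Calr and 2.4e-16 for Pdia3. Such differences passed for 48.2%, 69.2% and 70.1% of all genes tested in the 3 comparisons. The comparisons share libraries, so they are not independent of each other.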

How the results depend on the processing

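No log2 fold change of a member that was called in both the main and the other fit changed sign. Sign changes of values called in only 1 of these fits were not counted. The largest shift of a value called in the main fit was 0.365. Signs changed 78 times among values called in neither fit, none of them over 0.32 in size. The 2 fallen pairs of member and line with IFNb became 4 when lines were fitted singly, 1 when no gene was filtered out and 1 with the replicate block, and 1 to 3 over fits that left out 1 library or 1 replicate number. The 1 member fallen on the mean with IFNg (Canx) became 0 without replicate 1, 2 or 3. The 5 pairs lower with IFNg than with IFNb became 3 without replicate 3, and 3 to 6 over all settings. The cause was not tested. The other counts stayed within 1.5 times. Same-numbered libraries did not deviate together (r of -0.17 to 0.101 over 68 pairs), so the main fit did not pair them. This check cannot show whether cultures of the same number were set up together. The replicate block lost 4 member calls and gained 0. Fits without replicate 1, 2 or 3 lost 10, 7 and 16 member calls and gained 0, 1 and 0. Single-line fits lost 9 and gained 10, and no filter lost 9 and gained 0. DESeq2 lost 1 and gained 3, limma-voom lost 1 and gained 3, and DESeq2's size factors lost 1 and gained 2. In all 13 member calls were lost without some single library. These 70 leave-outs were chosen after seeing the data and kept the filter, scaling and dispersion trend; full refits were not run. Without subtracting line means, the genes most like Tap1 were Psmb9 (r = 0.964), Gbp7 and Psmb8, those most like Tap2 were Psmb9, H2-D1 and Tnfrsf14, those most like Tapbpl were Irf1, Gbp2 and Gbp4, and those most like Erap1 were Ifi47, Psme2 and Tgtp2. For Tapbp they were Dtx3l, Parp9 and Uba7, for Canx Nin, Bod1 and Mns1, for Calr Mfsd11, Slc25a4 and Sec13, and for Pdia3 Shank2, Cyb561d2 and Tpst1.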
